A study of Mus musculus with 4 samples.

Results

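The proteasome genes comprise every gene on the array whose symbol is Psma, Psmb, Psmc, Psmd, Psme or Psmf followed by digits alone, without the immunoproteasome subunits Psmb8, Psmb9 and Psmb10. This gave 40 of the 29924 names on the array, measured by 49 probes, and the brightest probe stands for each gene. The genes fall into 5 parts: 8 of the alpha ring and 8 of the beta ring of the 20S core particle, 6 ATPases of the 19S regulatory particle, 14 genes of the Psmd series and 4 activator or inhibitor genes (Psme1, Psme3, Psme4 and Psmf1). The RNA came from mouse B cells, purified from spleen on magnetic beads and kept for 3 days in culture with 10 µg/mL anti-IgM and 10 µg/mL anti-CD40 (clone FGK4.5), which stimulate the antigen receptor and CD40. One group came from male Ackr4ko mice of 73 and 71 days, which lack the scavenging chemokine receptor Ackr4, and the other from male C57BL/6 mice (WT) of 77 and 74 days. Each of the 2 experiments, on different donors, gave 1 array per genotype. No label says how the allele was made or whether donors were pooled.

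The proteasome is the barrel-shaped protease that degrades proteins tagged with ubiquitin. The core particle is a stack of alpha rings, which gate the channel, and beta rings, which carry the active sites. The regulatory particle binds ubiquitin, removes it and, with a ring of ATPases, unfolds and feeds the substrate. In B cells the proteasome degrades inhibitors of NF-kappaB and cell cycle proteins and supplies peptides for MHC class I.

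Array brightness, taken as the upper quartile of processed signals, was 1277 and 740 for replicates 1 and 2 of Ackr4ko, against 916 and 913 for those of WT. All 8 B cell markers examined were well above background on all 4 arrays, and both Ackr4 probes on 0 of 4, so the targeted gene checks no label. The scanner files and the authors' value table also assign the arrays to opposite genotypes within each experiment: 4 of the 4 table columns matched the other genotype's array. Genotypes below are therefore those of the scanner files, written as labelled Ackr4ko and labelled WT. Every sign turns if the table is right. On the array of WT replicate 2 outlier flags covered 6.24% of spots, against 1.79 to 2.12% on the other arrays. It had 42.2% of probes well above background, against 49.5 to 54.9% elsewhere. Its highest local background was 292, against 61 to 76. The medians of all members and of the alpha, beta and Psmd parts are therefore also given without this array. The differences of experiment 2 all rest on this array and cannot be given without it.

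Of the 40 genes, 38 were well above background on all 4 arrays. The exceptions were Psma8, the alpha subunit of the testis, and Psmb11, the beta subunit of cortical thymic epithelium, each well above background on 0 of 4 arrays. The log2 signal of Psma8 was 2.67 and 3.40 in Ackr4ko-labelled cells, against 2.79 and 4.65 in WT-labelled cells. That of Psmb11 was 2.56 and 3.63 in Ackr4ko-labelled cells, against 2.79 and 4.68 in WT-labelled cells. These values lie at background and give no fold. The tissue-restricted members were thus not detected, while every other gene of the set was measured throughout.

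Across the 38 measured genes the difference between genotypes did not pass the test for any. Signals are log2 of the processed signal after each array's 75th percentile was set to a common value, and differences are arrays labelled Ackr4ko minus arrays labelled WT, tested with limma over 15961 genes. The fit called 0 of the 38 genes (0 also at an unadjusted p under 0.05, which 732 of 15961 genes had, the lowest limma p of a member being 0.0631), where 0.0125% of all tested genes were called. With the experiment as a block it again called 0, against 3.33% of all tested genes, and 2 of the 38 had an unadjusted p under 0.05, against 1694 of the 15961. The smallest adjusted p of a member was 0.241 in that fit. The median difference was 0.24 over the 38 genes and 0.08 over all tested genes, and standard errors ran from 0.32 to 0.48 (n = 2 per group). Leaving out Ackr4ko replicate 1 gave a median of 0.62, and leaving out Ackr4ko replicate 2 gave -0.13. Leaving out WT replicate 1 or 2 gave 0.19 or 0.30.

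**Figure D1:**
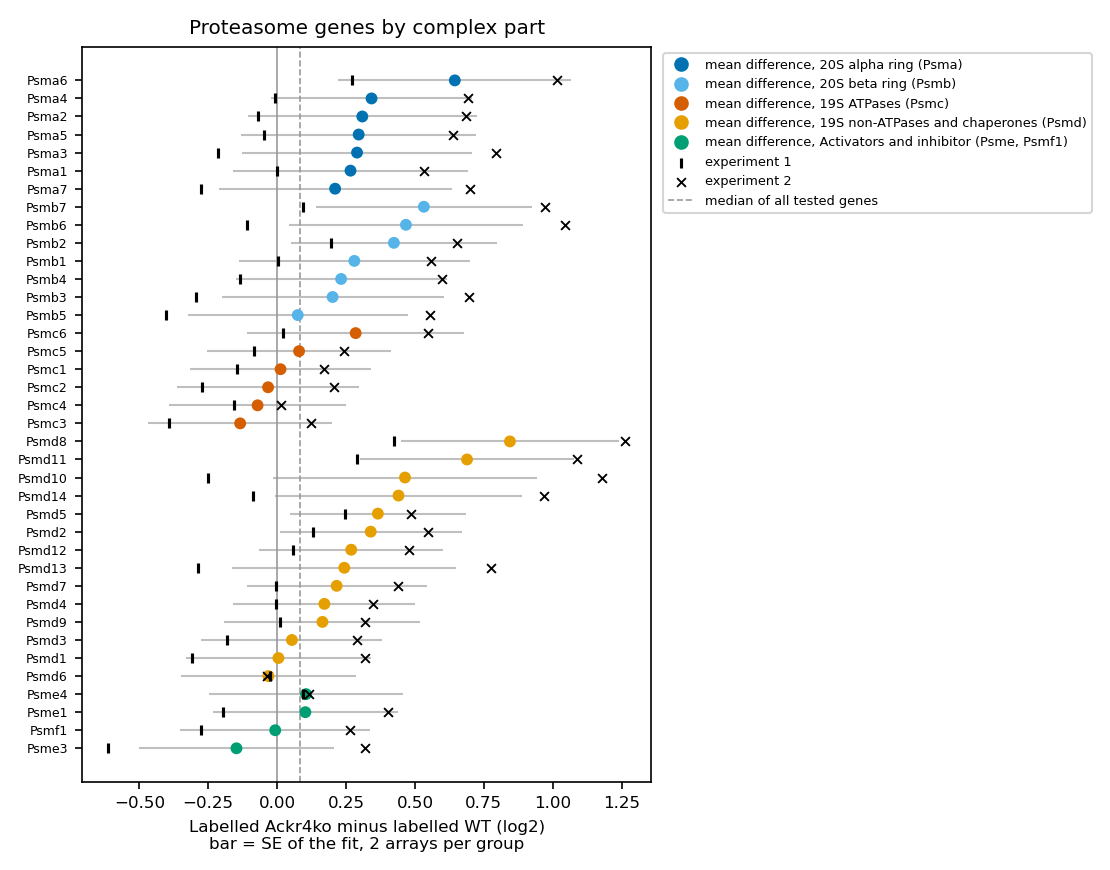
Each row is 1 measured gene, ordered by part of the complex and then by mean difference. Coloured points give the mean log2 difference, labelled Ackr4ko minus labelled WT, with the standard error of the limma fit (2 arrays per group), the black bar and cross give experiments 1 and 2, and the dashed line is the median of all tested genes (0.08). In most rows the cross lies far to the right of the bar.

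The experiments differed from each other in these genes. In experiment 1 the members had a median difference of -0.08, with 12 of 38 above 0, against a median of -0.04 for all tested genes. In experiment 2 the median was 0.55, with 37 of 38 above 0, against 0.23 for all tested genes, of which 10773 of 15961 were above 0. Among tested genes with a mean log2 signal of at least 13, 2432 of 2883 were above 0. A difference of at least 1.5-fold was seen in 1 of 38 genes in experiment 1 in either direction, where 15.6% of all tested genes reached it. In experiment 2 it was seen, toward labelled Ackr4ko, in 16 of 38 genes, where the share of all tested genes was 20.4%. No member reached it the same way in both experiments (0 of 38), against 6.00% of all tested genes. Members higher in both experiments numbered 12, where the share of all tested genes was 33.0%, and 1 was lower in both, against 20.9%. Each experiment holds 1 array per genotype, so neither has a test of its own.

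**Figure D2:**
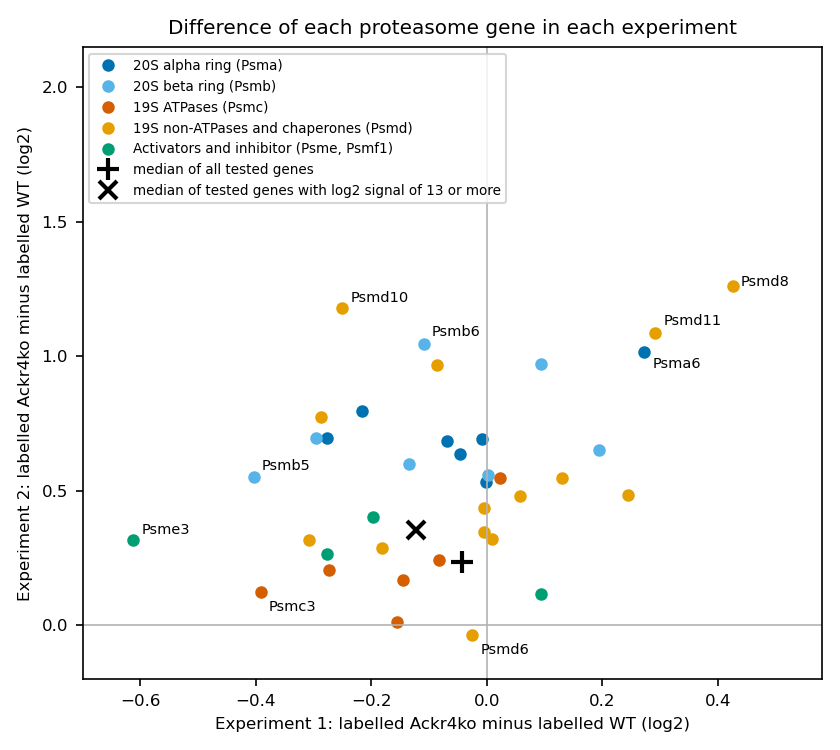
Each point is 1 measured proteasome gene, with its log2 difference (labelled Ackr4ko minus labelled WT) in experiment 1 on the horizontal axis and in experiment 2 on the vertical axis, coloured by part. The core genes lie between 0.53 and 1.04 in experiment 2, whereas 5 of the 6 ATPases lie at 0.24 or below. The plus and the cross mark the medians of all tested genes and of those with a log2 signal of 13 or more.

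The genes of the core particle had higher median differences in experiment 2 than the other parts. A high median was not particular to the core. The 8 genes of the lid, a portion of the regulatory particle within the Psmd series, had 0.63 there, with a wider range of -0.04 to 1.26. The spread of the core genes in experiment 2 was like that of the ATPases (SD over genes 0.17 and 0.18). In experiment 2 all 14 measured alpha and beta genes were higher on the array labelled Ackr4ko, by 0.53 to 1.04 on the log2 scale with a median of 0.69, and 11 of the 14 by at least 1.5-fold. In experiment 1 the same 14 genes ran from -0.40 to 0.27 with a median of -0.06. Their highest signal lay on the array labelled Ackr4ko replicate 2 in 14 of 14 cases. This held for 31 of the 38 members and for 45.3% of all tested genes, but for 72.4% of the 2883 tested genes with a mean log2 signal of at least 13. Those bright genes had a median difference of 0.35 in experiment 2, above that of all genes, so brightness moved with the difference. Its part in the result was not tested. Of the 2 arrays of experiment 2, the one labelled Ackr4ko also had the lower 75th percentile. The one labelled WT had more outlier spots and fewer probes well above background. The part of these in the result was not tested either.

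**Figure D3:**
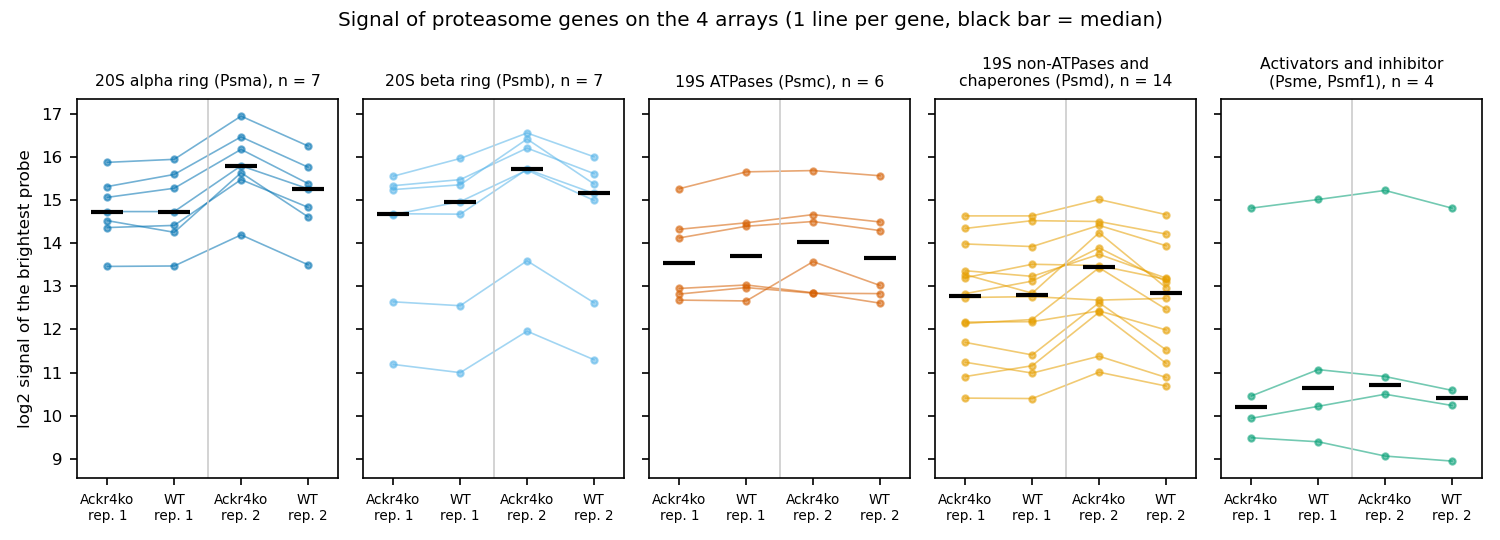
Each line is 1 measured gene, joining its log2 signal on the 4 arrays in the order Ackr4ko and WT of experiment 1, then Ackr4ko and WT of experiment 2, with 1 panel per part and a black bar for the median. Lines of the alpha and beta panels peak on the third array, while most ATPase lines are nearly flat. Probes differ in brightness, so heights are not compared between genes.

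In the alpha ring, Psma6 gave the largest difference. Its log2 signal was 14.52 and 15.63 in Ackr4ko-labelled cells, against 14.25 and 14.61 in WT-labelled cells. It was higher on the array labelled Ackr4ko in both experiments, but the groups overlapped, and the difference of 0.64 ± 0.42 (SE, n = 2 per group) was not called. It was 1.20 with Ackr4ko replicate 1 left out and 0.094 with Ackr4ko replicate 2 left out. Psma4 had 13.46 and 14.19 in Ackr4ko-labelled cells, against 13.47 and 13.50 in WT-labelled cells. Here 3 arrays were nearly level and the array labelled Ackr4ko replicate 2 stood above them (difference 0.34). At the low end, Psma1 had 14.73 and 15.79 in Ackr4ko-labelled cells, against 14.73 and 15.26 in WT-labelled cells, for a difference of 0.27. Psma7 gave 0.21, with -0.28 in experiment 1 and 0.70 in experiment 2. The other alpha genes, Psma2, Psma3 and Psma5, gave 0.29 to 0.31. The part's median was 0.30, but 0.84 with Ackr4ko replicate 1 left out and -0.26 with Ackr4ko replicate 2 left out. Leaving out WT replicate 1 or 2 gave 0.15 or 0.46.

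The beta ring includes the catalytic subunits Psmb5, Psmb6 and Psmb7, of chymotrypsin-like, caspase-like and trypsin-like activity. Psmb7 had 12.64 and 13.59 in Ackr4ko-labelled cells, against 12.55 and 12.62 in WT-labelled cells. It was the beta gene whose groups did not overlap, with a difference of 0.53 ± 0.39. That difference was 1.00 with Ackr4ko replicate 1 left out and 0.060 with Ackr4ko replicate 2 left out. Psmb6 had 15.24 and 16.41 in Ackr4ko-labelled cells, against 15.35 and 15.37 in WT-labelled cells. The WT-labelled arrays were within 0.02 of each other, and the arrays labelled Ackr4ko lay on either side of them (difference 0.47). Psmb5 had 15.55 and 16.55 in Ackr4ko-labelled cells, against 15.96 and 16.00 in WT-labelled cells, with a difference of 0.07 that turned to -0.10 after quantile normalization. Its second probe gave 0.29. Psmb3, a structural subunit, gave 0.20, and the remaining genes Psmb1, Psmb2 and Psmb4 gave 0.23 to 0.42. The beta median of 0.28 was 0.80 with Ackr4ko replicate 1 left out, -0.20 with Ackr4ko replicate 2 left out and 0.19 or 0.48 with WT replicate 1 or 2 left out.

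The 6 ATPases, which form the ring that unfolds substrates, lay lower. Their median was -0.01, with -0.15 in experiment 1 and 0.19 in experiment 2, both below the core genes. Psmc6 alone had a profile near that of the core genes, with 12.68 and 13.57 in Ackr4ko-labelled cells, against 12.66 and 13.02 in WT-labelled cells, a difference of 0.28. Psmc3 had 15.26 and 15.68 in Ackr4ko-labelled cells, against 15.65 and 15.56 in WT-labelled cells, and gave -0.13. In Psmc3 the lowest array was the one labelled Ackr4ko replicate 1, and the groups overlapped. Psmc4 gave -0.07 and Psmc5 0.08, and for both the brightest array was WT replicate 1. Psmc1 and Psmc2 gave 0.01 and -0.03. The gap between the core and ATPase medians was 0.09 in experiment 1 and 0.50 in experiment 2. With quantile normalization the gap in experiment 2 was 0.53, made up of a core median of 0.32 and an ATPase median of -0.21. The ATPase sign in experiment 2 thus depended on the scaling, while the 14 core genes stayed above 0 with quantile, median and normexp processing. In the authors' value table under its own labels the core median of experiment 2 was -0.33 and the ATPase median 0.22, the mirror of these values.

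The Psmd series holds 8 genes of the lid, the 3 base genes Psmd1, Psmd2 and Psmd4, and 3 chaperones of base assembly (Psmd5, Psmd9 and Psmd10). In experiment 2 its genes ran from -0.04 to 1.26, with a median of 0.48, and of 0.63 for the 8 lid genes. Psmd8, a lid subunit, had the largest difference of all members, with 13.27 and 14.24 in Ackr4ko-labelled cells, against 12.84 and 12.97 in WT-labelled cells. The groups did not overlap, and the 1.80-fold difference (0.84 ± 0.40 on the log2 scale, fit without the block) was not called. The limma adjusted p was 0.9996 in that fit and 0.241 in the fit with the block. Leaving out Ackr4ko replicate 1 gave 1.33 and leaving out Ackr4ko replicate 2 gave 0.36. Psmd11, a lid subunit, had 11.70 and 12.62 in Ackr4ko-labelled cells, against 11.41 and 11.53 in WT-labelled cells. Its groups did not overlap either (0.69 ± 0.39), and with the same arrays left out it was 1.15 and 0.23. Psmd6, another lid subunit, had 12.74 and 12.68 in Ackr4ko-labelled cells, against 12.76 and 12.72 in WT-labelled cells. Its 4 arrays lay within 0.08, and it was the 1 member lower in both experiments (-0.03). Psmd1, the base scaffold, gave 0.00 (-0.31 in experiment 1 and 0.32 in experiment 2) and was -0.13 after quantile normalization. The other lid genes (Psmd3, Psmd7, Psmd12, Psmd13 and the deubiquitinase Psmd14) gave 0.05 to 0.44, the base genes Psmd2 and Psmd4 0.34 and 0.17, and the chaperones 0.16 to 0.46. Groups did not overlap, with labelled Ackr4ko higher, in 6 members: Psmb7, Psmd2, Psmd5, Psmd8, Psmd11 and Psmd12. For all tested genes the share was 19%. On the other probe of Psmd12 the groups overlapped, with 10.41 and 10.79 in Ackr4ko-labelled cells, against 10.52 and 10.43 in WT-labelled cells. In 0 members was every WT-labelled array the higher, against 10.00%. The Psmd median of 0.26 was 0.47 with Ackr4ko replicate 1 left out and -0.01 with Ackr4ko replicate 2 left out, and 0.28 or 0.29 with WT replicate 1 or 2 left out.

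Some members have more than 1 probe. Over 9 such members the gap between probes in the mean difference was 0.01 to 0.22 in 8 and 0.43 in Psmd10, a chaperone also known as gankyrin. Its probes are shown because they disagree in experiment 2, where the first gave 0.35 and the second, used here as the brighter, 1.18. Both lie on the minus strand of chromosome X (mm9) and are assigned to the Psmd10 transcript. The first, at chrX:137482968-137483027, is contiguous in the genome and the second, at chrX:137483840-137486736, spans an intron.
Psmd10 probe 1: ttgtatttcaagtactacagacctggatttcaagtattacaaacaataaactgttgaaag
Psmd10 probe 2: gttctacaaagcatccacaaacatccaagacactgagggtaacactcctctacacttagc
The value of 1.18 for Psmd10 in experiment 2 therefore rests on 1 of 2 probes. In experiment 1 the brighter and the other probe differed in sign for Psmd9 (0.01 and -0.16), Psmd12 (0.06 and -0.11) and Psme4 (0.09 and -0.17). These genes count as higher in both experiments only by the brighter probe.

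Activators open the core particle without ATP. Psme1, a subunit of the interferon-inducible PA28 ring, had 14.81 and 15.22 in Ackr4ko-labelled cells, against 15.01 and 14.81 in WT-labelled cells. The groups overlapped and the difference was 0.10 ± 0.34, with -0.07 after quantile normalization. Psme3, the nuclear activator of the same family, had 10.46 and 10.91 in Ackr4ko-labelled cells, against 11.07 and 10.59 in WT-labelled cells. It was the 1 member past 1.5-fold in experiment 1 (-0.61), with 0.32 in experiment 2 and -0.15 on average. Psme4, which encodes PA200, had 9.49 and 9.07 in Ackr4ko-labelled cells, against 9.40 and 8.95 in WT-labelled cells, a difference of 0.10. On this probe it was lower in experiment 2 than in experiment 1 on both genotypes, by 0.44 on average. By the brightest probe it was the only member of the 38 with its highest signal on the array labelled Ackr4ko replicate 1. The second probe of Psme4 did not show this pattern. It had 8.22 and 8.32 in Ackr4ko-labelled cells, against 8.39 and 8.04 in WT-labelled cells. Psmf1, which encodes the inhibitor PI31, had 9.94 and 10.50 in Ackr4ko-labelled cells, against 10.22 and 10.24 in WT-labelled cells, a difference of -0.01. Psme2, the partner of Psme1, has no probe under its own name. Of the 3 probes named Psme2b, a near copy, 2 also list Psme2 transcripts, and they gave 0.14 and 0.48 against -0.36 for the third, so signals of the pair cannot be told apart.

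The core genes were also compared between experiments within each genotype. From experiment 1 to experiment 2 the median change of the 14 core genes was 1.05 in Ackr4ko-labelled cells and 0.15 in WT-labelled cells. For the ATPases it was 0.36 in Ackr4ko-labelled and -0.10 in WT-labelled cells, and for all tested genes 0.13 and -0.08. The array labelled Ackr4ko replicate 2 thus stood above the other 3 for the core genes. Across the 38 members the differences of the 2 experiments correlated at r = 0.358, a description over genes that share the same 4 arrays. Over all tested genes r was 0.339.

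Promoters were read to see what the members share in sequence. RefSeq promoters (GRCm38.p6, 250 bases before to 50 after the start) were found for 33 of the 40 genes. Motifs were searched on both strands: TGACNNNGC, the core of the antioxidant response element bound by Nfe2l1 and Nfe2l2, CCAAT, the NF-Y box, CCGGAAG, an ETS factor core, and the motif of the factor NRF1 (GCGC, any 2 bases, GCGC). No member promoter had overlapping matches of different motifs (0 of 35 sequences). CCGGAAG was present in 12 of 33 members, against 9.93% of all 27025 genes with a promoter and 19.9% of the 10241 of these tested on the array. It was in 11 of the 21 members outside the core, and in 1 of 12 core genes. CCAAT was present in 13 of 33, against 41.1% of all genes and 43.1% of tested ones, 7 of them among the 12 core genes. These 12 include the undetected Psmb11, which carries CCAAT. TGACNNNGC was present in 6 of 33, against 14% of all genes and 16.4% of tested ones. The NRF1 motif was also present in 6 of 33, against 7.0% of all genes and 14.3% of tested ones. These are letter matches, with no test of the difference.

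The promoters below are chosen examples, with motif matches in capitals, and do not stand for the shares above. Of the 12 core genes with a promoter found, Psmb5 and Psmb6 were the only ones with TGACNNNGC. No promoter was found for the third catalytic gene, Psmb7. Psma6, the only one of these 12 with CCGGAAG, is not shown. Psma1 carries CCAAT on each strand, and the catalytic genes Psmb5 and Psmb6 carry TGACNNNGC close to the start. Psmc6, the ATPase with a profile near the core genes, carries CCGGAAG and TGACNNNGC, and Psmd11 carries CCGGAAG near the start. They lie at chr7:114276067-114276366, minus strand (Psma1), chr14:54617946-54618245, minus strand (Psmb5), chr11:70525107-70525406, plus strand (Psmb6), chr14:45329574-45329873, plus strand (Psmc6) and chr11:80428365-80428664, plus strand (Psmd11).
Psma1: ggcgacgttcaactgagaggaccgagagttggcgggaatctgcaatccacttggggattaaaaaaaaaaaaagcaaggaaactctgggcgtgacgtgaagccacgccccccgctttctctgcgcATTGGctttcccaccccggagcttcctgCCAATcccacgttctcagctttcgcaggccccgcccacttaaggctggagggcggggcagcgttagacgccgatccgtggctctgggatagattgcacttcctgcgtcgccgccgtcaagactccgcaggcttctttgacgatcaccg
Psmb5: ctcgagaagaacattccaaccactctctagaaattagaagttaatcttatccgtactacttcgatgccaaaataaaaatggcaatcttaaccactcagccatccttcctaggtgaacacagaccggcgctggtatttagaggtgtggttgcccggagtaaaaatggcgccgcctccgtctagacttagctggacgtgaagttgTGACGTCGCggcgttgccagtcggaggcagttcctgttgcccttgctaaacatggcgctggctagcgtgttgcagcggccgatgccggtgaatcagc
Psmb6: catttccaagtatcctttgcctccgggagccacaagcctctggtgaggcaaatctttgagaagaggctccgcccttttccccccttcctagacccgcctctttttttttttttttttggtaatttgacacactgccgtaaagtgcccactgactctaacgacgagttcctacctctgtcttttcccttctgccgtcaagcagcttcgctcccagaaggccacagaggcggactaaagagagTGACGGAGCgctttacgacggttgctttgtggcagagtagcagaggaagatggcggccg
Psmc6: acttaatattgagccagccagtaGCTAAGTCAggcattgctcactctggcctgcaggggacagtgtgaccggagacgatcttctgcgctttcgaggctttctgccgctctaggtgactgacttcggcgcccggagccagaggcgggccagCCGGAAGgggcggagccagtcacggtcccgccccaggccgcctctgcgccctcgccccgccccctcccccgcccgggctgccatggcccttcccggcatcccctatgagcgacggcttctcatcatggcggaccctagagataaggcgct
Psmd11: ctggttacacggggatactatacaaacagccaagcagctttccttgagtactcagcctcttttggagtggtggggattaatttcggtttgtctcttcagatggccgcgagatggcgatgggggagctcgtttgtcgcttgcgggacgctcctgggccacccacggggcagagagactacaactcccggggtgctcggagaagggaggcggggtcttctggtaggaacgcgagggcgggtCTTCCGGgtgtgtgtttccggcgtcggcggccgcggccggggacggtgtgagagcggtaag
Psmb6 and Psmb5, with the same motif, gave 1.04 and 0.55 in experiment 2. Psmd8, the member with the largest difference, was 1 of the 7 members with none of the 4 motifs in the window. Any link between motifs and differences was not tested.

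Other genes of the pathway gave no call without or with the block. Of the immunoproteasome subunits, which replace the catalytic beta subunits in lymphocytes, Psmb8 gave 0.41 and Psmb9 0.30, both higher in both experiments. With 1 array left out Psmb8 spanned 0.10 to 0.73 and Psmb9 0.0069 to 0.59. Psmb10 had 14.67 and 14.69 in Ackr4ko-labelled cells, against 15.19 and 14.99 in WT-labelled cells. Its groups did not overlap, with labelled Ackr4ko lower (-0.41 ± 0.32), and the test of 2 arrays per group did not call it. Among 15 measured assembly factors and associated proteins the median was 0.18, with 0.50 in experiment 2. The smallest p was that of Uchl5, a deubiquitinase that binds the regulatory particle (0.53), and of Akirin2, which brings proteasomes into the nucleus (0.40). The 6 regulators of proteasome genes had a median of 0.17, with Ngly1 (0.47) and Ddi2 (0.33), which process the factor Nfe2l1. Ngly1 was 0.18 after normexp, and Ddi2 was 0.070 with WT replicate 2 left out and 0.59 with WT replicate 1 left out. The 13 ubiquitin and delivery genes had a median of 0.07, with 0.30 for the activating enzyme Uba1. Ngly1 was well above background on 3 of 4 arrays. The 7 peptide loading genes had a median of -0.09, with Tapbp (-0.48) and Erap1 (-0.28), which load and trim MHC class I peptides, and 0 members called.

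Markers of other cells were read beside these values. Of 6 dendritic markers, Flt3 and Zbtb46 were well above background on all 4 arrays. In experiments 1 and 2 the difference was 1.30 and 0.84 for Flt3 and 0.66 and 1.33 for Zbtb46. Batf3 and Fscn1 were well above background on 2 of 4 arrays, those labelled Ackr4ko, and Itgax and Xcr1 on 0 of 4. Batf3 and Fscn1 thus passed the filter only through the group where they are high, and their differences are not used. The log2 signal of Flt3 was 13.38 and 12.97 in Ackr4ko-labelled cells, against 12.08 and 12.13 in WT-labelled cells. That of Zbtb46 was 7.87 and 8.66 in Ackr4ko-labelled cells, against 7.21 and 7.34 in WT-labelled cells. The 8 B cell markers had medians of 0.04 and -0.16 in experiments 1 and 2. In 3 of the 8 the groups did not overlap, with labelled Ackr4ko lower, against 10.00% of all tested genes. Of the 8 markers, 3 were lower in both experiments, 1 (Ebf1) was higher in both and 4 changed direction between them. The 5 tested T cell markers of 6 had medians of 0.00 and 0.17 in experiments 1 and 2, and the 4 tested macrophage markers of 6 had -0.37 and -0.11. Of 4 NK markers Prf1 alone was tested, with -0.015 and 0.69, and of 4 neutrophil markers Ly6g gave 0.75 and 0.69 and Elane -0.27 and 0.11. The 1 tested erythroid and platelet marker of 5 gave -0.47 and 0.45. In bulk RNA a change in the number of cells of a type and in RNA per cell cannot be told apart. The part of cell makeup in the difference of experiment 2 was not tested.

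**Figure D4:**
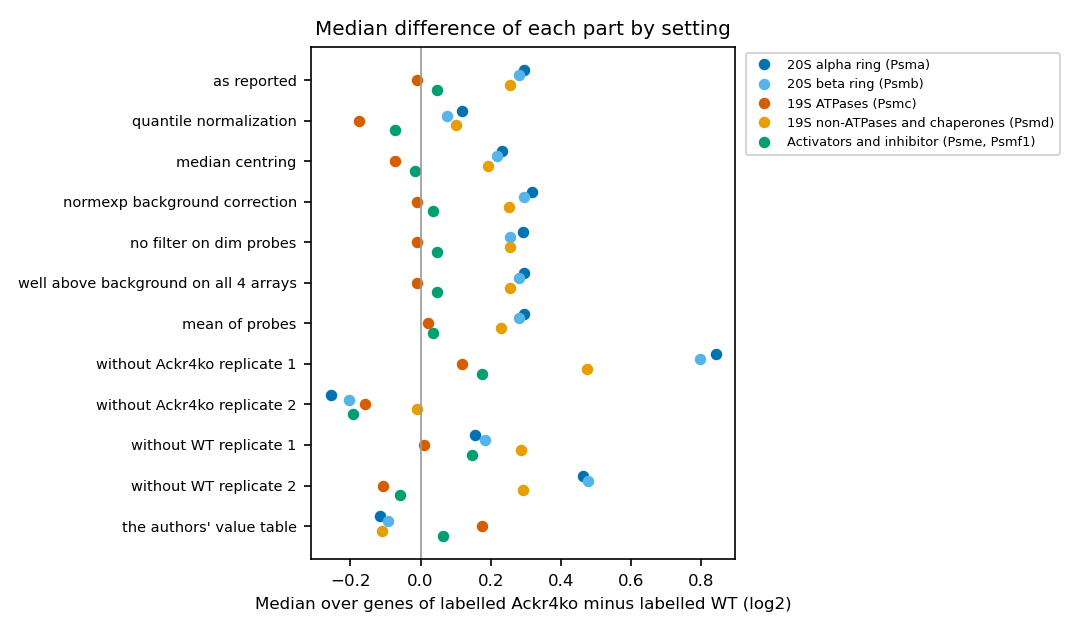
Each row is 1 processing setting or 1 array left out, and points give the median log2 difference (labelled Ackr4ko minus labelled WT) of each part. Alpha medians span -0.26 to 0.84 with 1 array left out, and the value table under its own labels shows signs opposite to the reported ones for the alpha, beta, ATPase and Psmd medians.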

How the data were processed

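RNA of 4 cultures was hybridised to 1-colour Agilent arrays on 1 slide, scanned together, so slide and scan cannot act as batches. The deposited scanner files hold spot intensity from Feature Extraction 10.7.3.1 (Agilent), per the file headers, spatially and multiplicatively detrended but not scaled between arrays, with probe positions on mm9. The authors' value table holds 1 intensity per probe, with the same set of values in every column, as quantile normalization leaves. How it was made is not given in the sources used here.

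Control spots and feature outliers were left out, no spot was saturated (0), the 4 spots of a probe were averaged, and log2 of the processed signal was set to a common 75th percentile. The log2 values are thus of the deposited intensity. Probes with at least 50% of spots well above background on at least 2 arrays were tested (20862 of 39429), giving 15961 genes by the brightest probe. The genotype difference was fitted without a block by lmFit and eBayes of limma (version 3.58.1, R version 4.3.3). Tests were two-sided, and p-values were adjusted by Benjamini-Hochberg over all genes, with a threshold of 0.05. The fit was tested on simulated data with independent noise, equal for all genes, and no effect of the experiment. That setting is simpler than these arrays, so it does not bear on the results. Same-numbered replicates come from 1 experiment, as the series description states, and their deviations correlated at 0.42, so the numbers pair arrays.

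The members, lists and tests were chosen with earlier results of these data known. Named are members called, the 2 highest and 2 lowest differences of each part, all activators, Psmb5 to Psmb7, undetected members and, per pathway list, the 2 genes with the smallest p, of which 1 is not reported here. Other members were named after their values were seen. Precision is limited by having 4 arrays, and 0.333 is the smallest p of an exact two-sided permutation test at this size. The labels do not say that donors were single animals, so p-values measure the spread between these arrays. Alternatives covered normalization, background correction, probe filter and choice, the block, each array left out and the value table.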

Additional observations from a re-analysis of the deposited data

How the results depend on the processing

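The count of members called (0) and of members past 1.5-fold with 1 direction in each experiment (0) was the same under each alternative that could give it, and no named gene was called in any (0). Over all genes 2 were called, against 1 with quantile normalization, 0 without a filter on dim probes, 0 with probes above background on all 4 arrays, 20 with normexp, 532 with the replicate block, 1 in the value table and 1 to 122 with 1 array left out (1 without either array labelled Ackr4ko, 24 without WT replicate 1, 122 without WT replicate 2). The block changed no call of a member or pathway gene. With 1 array left out the medians of the parts spanned -0.26 to 0.84 (alpha), -0.20 to 0.80 (beta), -0.16 to 0.12 (ATPase), -0.01 to 0.47 (Psmd) and -0.19 to 0.18 (activators). In the value table under its own labels the Psmd median was -0.11. The 339 values of named genes under alternatives do not include the value table. Among them the block and the changed probe filters gave the reported difference again, so no sign turned there. Of the 339 values, 26 turned sign. Among these, with quantile normalization, were Psmb5 (-0.10), Psmc5 (-0.048), Psmd1 (-0.13) and Psme1 (-0.071), and with median centring Psmd1 (-0.059). With 1 array left out, differences spanned -0.79 to 0.22 (Erap1), -0.26 to 0.80 (Psma1), -0.025 to 0.71 (Psma4), -0.36 to 0.78 (Psma7), -0.31 to 0.71 (Psmb3), -0.43 to 0.57 (Psmb5), -0.12 to 1.05 (Psmb6), -0.35 to 0.077 (Psmc3), -0.14 to 0.0014 (Psmc4), -0.13 to 0.29 (Psmc5), -0.16 to 0.73 (Psmc6), -0.17 to 0.18 (Psmd1), -0.099 to 0.30 (Psme1), -0.39 to 0.091 (Psme3), -0.12 to 0.33 (Psme4), -0.29 to 0.27 (Psmf1). The cause of these turns was not tested. All 38 measured members were well above background on all 4 arrays.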
